A study of Homo sapiens with 29 samples.

Results

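PPARG, the acyl-CoA synthetase genes ACSL1, ACSL3, ACSL4 and ACSL5, and the fatty acid handling genes CPT1A, PDK4, ANGPTL4 and PLIN2 were followed in HCT116, a human colon carcinoma line. They were taken by symbol from the 38148 genes of the deposited RNA table, and all 9 were present and passed the filter on low values (at least 0.25 RPM in at least 4 libraries, where RPM is reads scaled for library size as deposited), as did 17973 genes in all. In the anti-crotonyllysine table, 20 of 49916 regions carried the symbol of 1 of 8 of these genes, and no region carried PDK4. Cells received 35 nM siRNA against DAXX, the gene of a histone H3.3 chaperone, or 25 nM non-targeting siRNA, so siRNA dose and target cannot be told apart. Each arm was grown with 10 mM crotonate or without it, and the sample protocol gives 48 h of crotonate where the series text gives 18 h. RNA was sequenced from 4 libraries each of DAXX siRNA with crotonate, non-targeting siRNA with crotonate, DAXX siRNA alone and non-targeting siRNA alone. Chromatin immunoprecipitation (ChIP) with a pan antibody against crotonyllysine (Kcr) had 2, 2, 4 and 4 libraries of the same groups in that order, with 1 input library from cells with DAXX siRNA. All samples are 1 cell line, and the labels do not say whether replicates were separate cultures, so p-values measure only the spread between these samples, which may be technical.

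PPARγ, the product of PPARG, is a nuclear receptor that fatty acids and their derivatives activate, and it binds DNA as a partner of the retinoid X receptor. Its relatives PPARα and PPARδ share many target genes with it, among them genes for fatty acid uptake, storage and oxidation. A fatty acid must be joined to coenzyme A by an acyl-CoA synthetase before it can be oxidised or stored. Crotonate is a short-chain acid whose CoA thioester is the donor for lysine crotonylation of histones. In the colon, epithelial cells meet short-chain fatty acids made by gut bacteria.

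The 9 genes lie each on a chromosome of its own, in the spans that the deposited RNA table gives on GRCh38. PPARG spans chr3:12287368-12434356 on the plus strand. ACSL1 spans chr4:184755595-184826818 and ACSL4 chrX:109624244-109733403, both on the minus strand. ACSL3 spans chr2:222860942-222944639 and ACSL5 chr10:112374018-112428380, both on the plus strand. CPT1A spans chr11:68754620-68844410, PDK4 chr7:95583499-95596516 and PLIN2 chr9:19108375-19149290, all on the minus strand. ANGPTL4 spans chr19:8363289-8374370 on the plus strand.

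Promoter windows of 4 genes whose RNA rose with crotonate are shown. Kcr regions lie at or beside them, and 2 of these genes hold the hexamer that PPARs and related receptors bind. The windows shown are a selection. The window of ACSL4, called higher in the non-targeting arm, also overlaps a Kcr region, as do ACSL1 windows further into the gene. Each window runs from 250 bases before to 50 bases after a RefSeq start (GRCh38.p14) and is written 5′ to 3′ on the strand of the gene. Capitals mark the half-site AGGTCA on either strand (TGACCT on the other).
PPARG, chr3:12287118-12287417, plus strand: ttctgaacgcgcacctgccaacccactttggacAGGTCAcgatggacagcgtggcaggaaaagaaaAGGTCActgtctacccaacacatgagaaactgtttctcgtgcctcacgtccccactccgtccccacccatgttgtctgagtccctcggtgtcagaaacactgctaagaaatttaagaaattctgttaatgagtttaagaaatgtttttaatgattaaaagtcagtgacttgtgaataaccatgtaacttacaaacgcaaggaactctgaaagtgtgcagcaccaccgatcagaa
PPARG, chr3:12288810-12289109, plus strand: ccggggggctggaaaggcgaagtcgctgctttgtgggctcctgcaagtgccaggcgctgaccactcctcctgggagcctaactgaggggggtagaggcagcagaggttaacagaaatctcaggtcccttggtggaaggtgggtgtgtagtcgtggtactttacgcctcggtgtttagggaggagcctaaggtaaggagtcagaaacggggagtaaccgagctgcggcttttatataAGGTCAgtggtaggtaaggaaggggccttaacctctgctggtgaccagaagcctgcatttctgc
ACSL5, chr10:112375018-112375317, plus strand: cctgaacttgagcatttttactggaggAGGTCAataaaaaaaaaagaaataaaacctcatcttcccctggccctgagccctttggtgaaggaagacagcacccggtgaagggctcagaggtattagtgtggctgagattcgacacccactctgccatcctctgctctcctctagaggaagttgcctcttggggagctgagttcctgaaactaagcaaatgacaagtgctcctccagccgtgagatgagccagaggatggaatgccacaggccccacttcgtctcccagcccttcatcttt
ACSL1, chr4:184825919-184826218, minus strand: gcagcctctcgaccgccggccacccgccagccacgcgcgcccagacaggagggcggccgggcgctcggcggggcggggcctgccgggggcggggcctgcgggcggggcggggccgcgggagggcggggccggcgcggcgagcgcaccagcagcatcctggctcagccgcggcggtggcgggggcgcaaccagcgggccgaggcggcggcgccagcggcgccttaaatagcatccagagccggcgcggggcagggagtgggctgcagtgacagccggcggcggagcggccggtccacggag
PDK4, chr7:95596467-95596766, minus strand: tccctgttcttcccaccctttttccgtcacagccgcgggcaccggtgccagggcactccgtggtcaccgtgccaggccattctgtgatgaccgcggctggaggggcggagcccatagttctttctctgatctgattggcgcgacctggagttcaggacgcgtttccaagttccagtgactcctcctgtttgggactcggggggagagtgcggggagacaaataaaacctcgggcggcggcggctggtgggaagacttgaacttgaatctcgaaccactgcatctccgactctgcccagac

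The PPARG window at chr3:12287118-12287417 held 2 half-sites, 217 and 184 bases before the start, and the one at chr3:12288810-12289109 held 1, 14 bases before its start. In the ACSL5 window the half-site began 223 bases before the start. RefSeq lists 19 start windows for the 9 genes, and 4 of them held the half-site (3 of PPARG, of which 2 overlap and share 1 site, and 1 of ACSL5). Of all 35116 windows of the same length, 13.8% held it. The full direct repeat AGGTCANAGGTCA, which contains the half-site, was in none of the 19 windows and in 0.0228% of all. A looser form, AGGNCANAGGNCA, which contains the full repeat, was also in none of the 19 windows and in 0.310% of all. The PDK4 and ACSL1 windows shown held no half-site. These matches are a description of the letters in the windows.

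Libraries held 35003617 to 55128007 reads in the RNA table, 2226835 to 3639130 reads in regions for ChIP and 1719036 for the input. Intervals that follow cover the spread between libraries and no other error. DAXX, the siRNA target, stood at 13.1 to 24.2 RPM in the libraries with DAXX siRNA and crotonate, against 95.2 to 102 RPM with non-targeting siRNA and crotonate. Without crotonate it stood at 22.9 to 27.4 RPM with DAXX siRNA, against 101 to 105 RPM with non-targeting siRNA. Its log2 fold change for DAXX siRNA was -2.41 with crotonate and -2.07 without, both past the threshold, and the groups did not overlap. Within the DAXX siRNA arm, DAXX was itself lower with crotonate (log2 fold change -0.38, limma adjusted p = 0.0452), a call that held in 9 of 24 other settings. Markers of colon epithelium (8 genes) summed to 3849 to 5008 RPM over all libraries. Most of it was the keratins KRT8 (2192 to 2870 RPM), KRT19 (742 to 1158 RPM) and KRT18 (580 to 750 RPM). CDX2 stood at 13.7 to 20.5 RPM and VIL1 at 8.24 to 15.8 RPM, and LGR5 reached at most 0.222 RPM. With crotonate CDH1 was called higher in the DAXX siRNA and non-targeting arms (0.29 and 0.32). EPCAM was called lower in the DAXX siRNA arm (-0.27, limma adjusted p = 0.0191) and not in the other (-0.18). Of 6 adipocyte markers, ADIPOQ and LEP had no read in any library and the list summed to 8.31 to 14.5 RPM, and the 4 hepatocyte markers summed to at most 0.338 RPM. Most of the adipocyte sum was LIPE (8.08 to 14.3 RPM over all libraries). The 4 fibroblast markers summed to 19.3 to 27.7 and 17.7 to 23.1 RPM with crotonate (DAXX and non-targeting siRNA), against 12.1 to 19.4 and 11.3 to 21.4 RPM without it, with DCN at no read in any library. Most of that sum was COL1A1 (11.1 to 26.9 RPM over all libraries), while COL1A2 and PDGFRB reached at most 0.113 and 0.718 RPM. The 4 leukocyte markers reached at most 0.412 RPM with crotonate, against 0.0901 RPM without it. The part of these markers in the results was not tested.

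With crotonate the RNA of PPARG, ACSL1 and ACSL5 was higher in both siRNA arms, by 1.33-fold to 1.54-fold. PDK4 and ACSL4 passed the threshold in the non-targeting arm and missed it in the DAXX siRNA arm. CPT1A, ANGPTL4, PLIN2 and ACSL3 passed it in neither arm. In the DAXX siRNA arm 3 of 9 genes were called higher and 0 lower, where 13.0% of all tested genes were called higher and 2.41% lower (limma, Benjamini-Hochberg adjusted p under 0.05 over all tested genes). In the non-targeting arm 5 of 9 were called higher and 0 lower, where 13.1% and 2.34% of all tested genes were. The median log2 fold change of the 9 genes was 0.32 in the DAXX siRNA arm and 0.41 in the non-targeting arm, beside 0.06 and 0.07 over all tested genes. All 9 had a fold change above 0 in both arms, as 60.1% of tested genes did in the DAXX siRNA arm and 62.5% in the non-targeting arm. Libraries did not overlap between crotonate and no crotonate for 5 of 9 genes in the DAXX siRNA arm, all higher, where 14.7% of all tested genes were apart in that direction. In the non-targeting arm the same held for 6 of 9, where 16% were. These genes and the lists below were chosen with earlier results of these data known. The shares therefore describe the 9 genes and do not test them as a set. In bulk RNA, more cells that express a gene and more RNA per cell cannot be told apart.

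Most genes called with crotonate were higher on the deposited RPM scale, and that split depends on how libraries are scaled. Of the called genes, 84.4% were higher in the DAXX siRNA arm and 84.8% in the non-targeting arm. With every library centred at its median gene these shares were 50.4% and 46.2%, and after quantile scaling they were 63.0% and 58.5%. The median over all genes shifted by -0.12 (DAXX siRNA arm) and -0.13 (non-targeting arm) on the log2 scale under centring. Under centring 8.43% of tested genes were called higher and 8.28% lower in the DAXX siRNA arm, and 8.11% and 9.46% in the non-targeting arm. Under quantile scaling the shares were 8.06% and 4.74% in the DAXX siRNA arm, and 7.92% and 5.62% in the non-targeting arm. The calls of PPARG, ACSL1 and ACSL5 in both arms and of PDK4 in the non-targeting arm held under both scalings. The direction of PLIN2 in the non-targeting arm turned under both scalings, and that of CPT1A in the non-targeting arm and ACSL3 in the DAXX siRNA arm turned under centring.

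**Figure D1:**
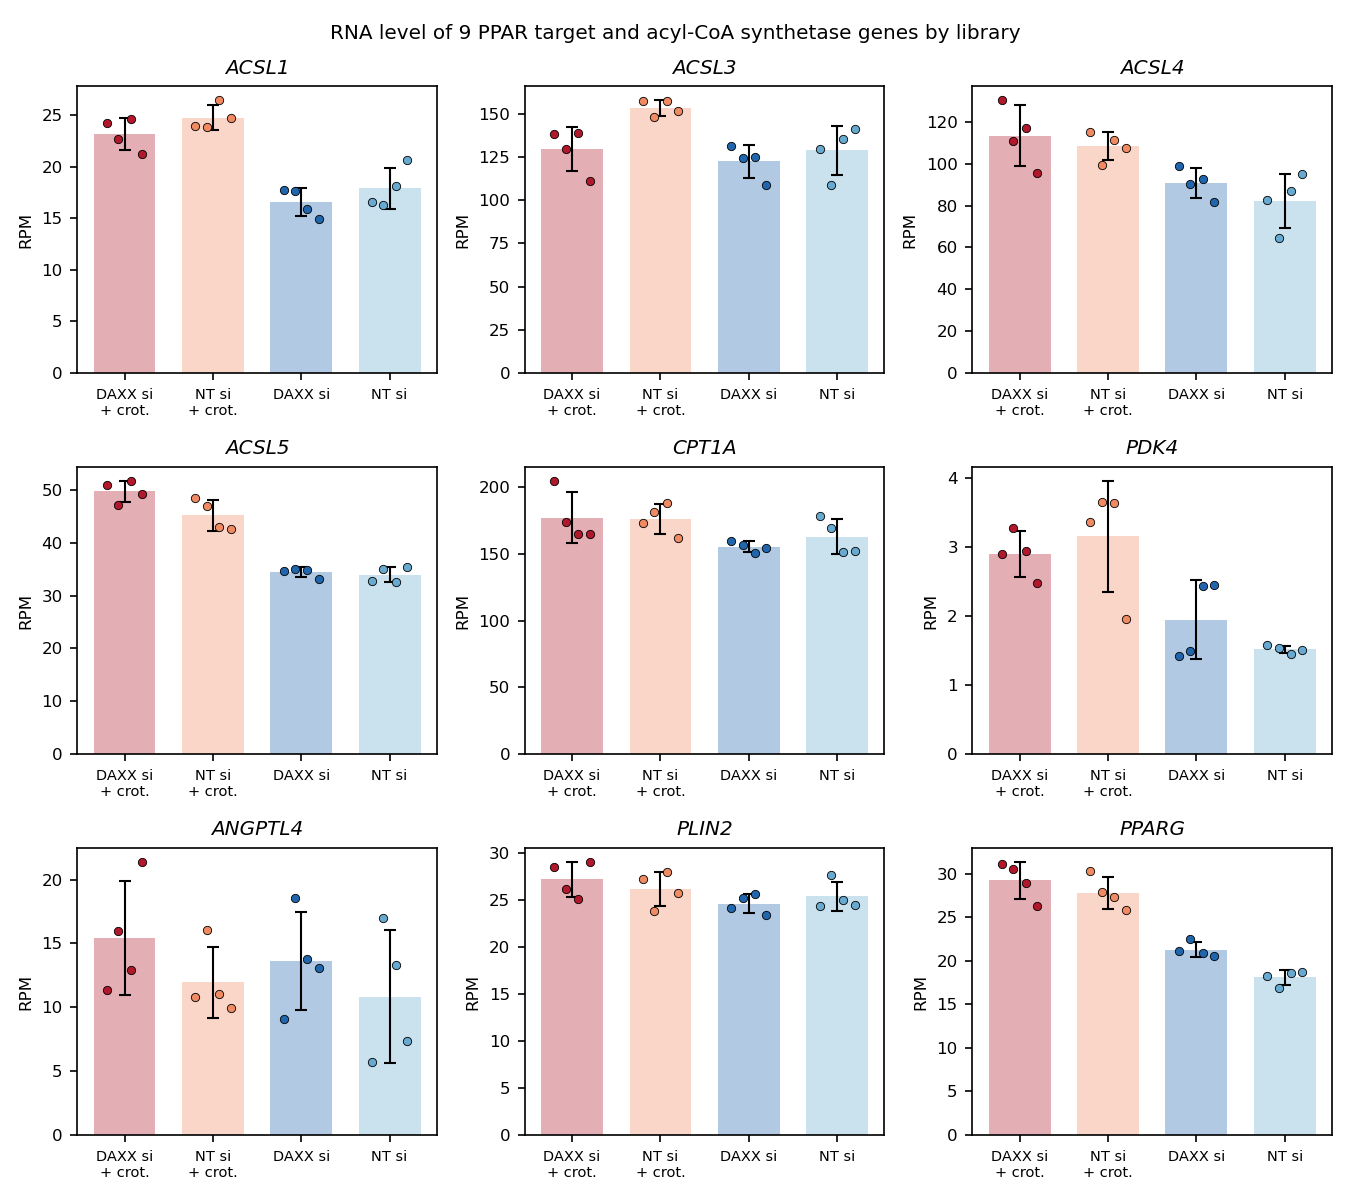
RNA level (RPM, linear axis from 0) of the 9 genes in 16 libraries, with 4 groups per panel (crot., crotonate; NT si, non-targeting siRNA). Points are libraries, bars are group means and error bars are the SD of 4 libraries. The PPARG, ACSL1 and ACSL5 points with crotonate all lie above those without it, the PDK4 library at 1.96 RPM lies apart from the other 3 of its group, and ANGPTL4 libraries of one group range from 5.72 to 17.0 RPM.

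PPARG, the receptor gene, had 31.1, 30.5, 28.9 and 26.3 RPM with DAXX siRNA and crotonate, against 21.1, 22.5, 20.9 and 20.6 RPM with DAXX siRNA alone. PPARG had 30.3, 27.9, 27.3 and 25.9 RPM with non-targeting siRNA and crotonate, against 18.2, 16.9, 18.6 and 18.7 RPM without it. All libraries with crotonate lay above all libraries without it. The log2 fold change was 0.46 ± 0.08 (SE) in the DAXX siRNA arm (limma adjusted p = 0.000409) and 0.62 ± 0.08 in the non-targeting arm (limma adjusted p = 1.69e-05). The order of the group means was DAXX siRNA with crotonate (29.2 RPM), non-targeting siRNA with crotonate (27.8 RPM), DAXX siRNA alone (21.3 RPM) and non-targeting siRNA alone (18.1 RPM). The 2 groups with crotonate overlapped, and the 2 groups without it did not. The values do not separate the PPARγ1 and PPARγ2 isoforms, since they count reads per gene.

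ACSL1, which activates long-chain fatty acids and is a textbook PPAR target in liver and fat, had 24.3, 22.7, 24.6 and 21.3 RPM with DAXX siRNA and crotonate, against 17.7, 17.6, 15.9 and 15.0 RPM with DAXX siRNA alone. ACSL1 had 24.0, 23.8, 26.5 and 24.7 RPM with non-targeting siRNA and crotonate, against 16.5, 16.3, 18.1 and 20.6 RPM without it. Neither pair of groups overlapped. The log2 fold changes were 0.49 ± 0.09 (SE; limma adjusted p = 0.000865) in the DAXX siRNA arm and 0.47 ± 0.09 (limma adjusted p = 0.00116) in the non-targeting arm.

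ACSL5, the long-chain acyl-CoA synthetase typical of intestinal epithelium, had 50.9, 47.1, 51.7 and 49.4 RPM with DAXX siRNA and crotonate, against 34.7, 35.1, 34.9 and 33.2 RPM with DAXX siRNA alone. ACSL5 had 48.5, 47.0, 43.0 and 42.6 RPM with non-targeting siRNA and crotonate, against 32.9, 35.0, 32.6 and 35.4 RPM without it. All libraries with crotonate lay above all libraries without it. The log2 fold changes were 0.53 ± 0.07 (SE; limma adjusted p = 2.43e-05) in the DAXX siRNA arm and 0.41 ± 0.07 (limma adjusted p = 0.000298) in the non-targeting arm. The counting strand is not given in the sources used here, and ACSL5 shares 3953 bases with ZDHHC6 and 29777 bases with AL157786.1, both on the opposite strand, so reads there cannot be told apart. ZDHHC6 itself was not called with crotonate in either arm (log2 fold changes -0.07 and 0.09 in the DAXX siRNA and non-targeting arms). AL157786.1 was called higher in the DAXX siRNA arm (0.55, limma adjusted p = 0.0096; 4.11 RPM with crotonate, against 2.82 RPM without it).

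ACSL4, which prefers arachidonic acid, had 131, 111, 117 and 95.7 RPM with DAXX siRNA and crotonate, against 98.9, 90.1, 92.5 and 81.8 RPM with DAXX siRNA alone. ACSL4 had 115, 99.5, 111 and 107 RPM with non-targeting siRNA and crotonate, against 82.6, 64.4, 87.0 and 94.9 RPM without it. In the DAXX siRNA arm library 4 with crotonate lay within the range without it, and in the non-targeting arm the groups did not overlap. The log2 fold change was 0.32 ± 0.11 (SE; limma adjusted p = 0.0548) in the DAXX siRNA arm, which missed the threshold, and 0.41 ± 0.11 (limma adjusted p = 0.0127) in the non-targeting arm. Centring on the median gene ended the call in the non-targeting arm (0.28, adjusted p = 0.0865). The DAXX siRNA arm value passed the threshold without DAXX siRNA and crotonate library 4 (0.39, adjusted p = 0.0186), without non-targeting library 2 (adjusted p = 0.0128) or without non-targeting library 4 (adjusted p = 0.0433). Of 24 other settings 5 called it, with fold changes of 0.20 to 0.39 and limma adjusted p up to 0.238.

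ACSL3, a synthetase of the endoplasmic reticulum and of nascent lipid droplets, had 138, 130, 139 and 111 RPM with DAXX siRNA and crotonate, against 132, 124, 125 and 109 RPM with DAXX siRNA alone. ACSL3 had 157, 148, 158 and 151 RPM with non-targeting siRNA and crotonate, against 130, 109, 135 and 141 RPM without it. The groups overlapped in the DAXX siRNA arm and were apart in the non-targeting arm. The log2 fold change was 0.08 ± 0.09 (SE; limma adjusted p = 0.624) in the DAXX siRNA arm and 0.26 ± 0.09 (limma adjusted p = 0.0524) in the non-targeting arm, so neither passed. The non-targeting arm value lay at the threshold. It passed without non-targeting library 4 (0.31, adjusted p = 0.0324) or DAXX siRNA library 4 (adjusted p = 0.0457). It also passed without DAXX siRNA and crotonate library 1 or 4 (adjusted p = 0.0479 and 0.031). Of 24 other settings 8 called it, with fold changes of 0.13 to 0.31 and limma adjusted p up to 0.365.

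CPT1A, the gate for long-chain acyl groups entering mitochondria, had 205, 174, 165 and 165 RPM with DAXX siRNA and crotonate, against 160, 157, 151 and 155 RPM with DAXX siRNA alone. CPT1A had 173, 182, 188 and 162 RPM with non-targeting siRNA and crotonate, against 179, 169, 152 and 152 RPM without it. The DAXX siRNA groups did not overlap and the non-targeting groups did. Neither fold change passed the threshold: 0.18 (95% interval 0.02 to 0.35, limma adjusted p = 0.132) in the DAXX siRNA arm and 0.12 (-0.05 to 0.28, limma adjusted p = 0.376) in the non-targeting arm. The intervals leave room for a rise of up to 0.35 on the log2 scale.

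PDK4, a kinase that turns off pyruvate dehydrogenase and so favours fat over glucose as fuel, had 2.90, 3.27, 2.95 and 2.47 RPM with DAXX siRNA and crotonate, against 1.42, 1.49, 2.44 and 2.45 RPM with DAXX siRNA alone. PDK4 had 3.36, 3.65, 3.64 and 1.96 RPM with non-targeting siRNA and crotonate, against 1.58, 1.53, 1.44 and 1.51 RPM without it. These values rest on 54 to 197 reads per library. The groups did not overlap in either arm, although the 4 libraries with DAXX siRNA alone fell into 2 low and 2 high ones and library 4 of non-targeting siRNA with crotonate lay far below its group. The log2 fold change was 0.61 ± 0.21 (SE; limma adjusted p = 0.0593) in the DAXX siRNA arm and 1.01 ± 0.21 (limma adjusted p = 0.00251) in the non-targeting arm. Without DAXX siRNA library 3 or 4, or without non-targeting siRNA and crotonate library 4, the DAXX siRNA arm passed the threshold (adjusted p = 0.04, 0.0322 and 0.0284). These were the only 3 of 24 other settings that called it, and limma adjusted p reached 0.257.

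ANGPTL4, a secreted inhibitor of lipoprotein lipase and a standard PPAR target, had 11.3, 16, 12.9 and 21.4 RPM with DAXX siRNA and crotonate, against 9.11, 18.5, 13.8 and 13.1 RPM with DAXX siRNA alone. ANGPTL4 had 10.8, 16.1, 11.1 and 9.94 RPM with non-targeting siRNA and crotonate, against 5.72, 17.0, 13.3 and 7.35 RPM without it. The spread within groups was as wide as any difference between them, and library 2 was the highest in 3 of the 4 groups. The log2 fold changes were 0.18 (95% interval -0.41 to 0.77) in the DAXX siRNA arm and 0.25 (-0.34 to 0.84) in the non-targeting arm. Neither was called, and the intervals hold both no change and changes larger than those called for PPARG.

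PLIN2, the coat protein of cytosolic lipid droplets, had 28.6, 26.2, 25.2 and 29.0 RPM with DAXX siRNA and crotonate, against 24.2, 25.2, 25.6 and 23.5 RPM with DAXX siRNA alone. PLIN2 had 27.3, 23.9, 28 and 25.7 RPM with non-targeting siRNA and crotonate, against 24.3, 27.7, 25.0 and 24.5 RPM without it. The groups overlapped in both arms. The log2 fold change was 0.14 (95% interval -0.02 to 0.31, limma adjusted p = 0.256) in the DAXX siRNA arm and 0.04 (-0.12 to 0.21, limma adjusted p = 0.77) in the non-targeting arm.

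**Figure D2:**
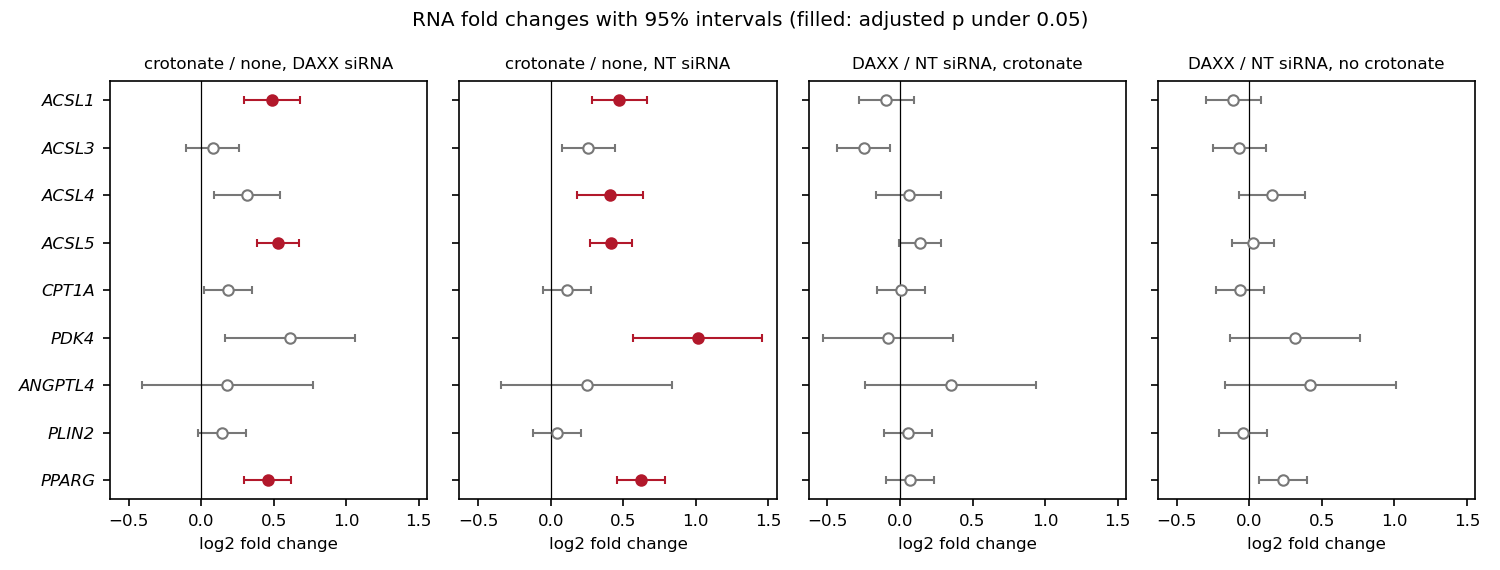
Log2 fold change of the 9 genes in 4 RNA comparisons, each panel titled with the group on top of the ratio first (NT, non-targeting). Points are limma estimates, bars are 95% intervals, and filled red points have adjusted p under 0.05. Filled points occur in the crotonate panels (3 and 5 genes) and none in the DAXX siRNA panels.

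DAXX siRNA changed none of the 9 genes past the threshold. With crotonate 0 of 9 were called, where 0.389% of all tested genes were higher and 0.668% lower. Without crotonate 0 of 9 were called, where 0.100% of all tested genes were higher and 0.306% lower. In each setting 1 of 9 (11.1%) had an unadjusted limma p under 0.05, a share near that of all tested genes, 10.9% (1968 of 17973) with crotonate and 12.2% (2189) without it. ACSL3 was 0.25 lower on the log2 scale with DAXX siRNA and crotonate than with non-targeting siRNA and crotonate (fold change -0.25, limma adjusted p = 0.236), and these libraries did not overlap, as was so for 4.94% of tested genes in that direction. PPARG was 0.23 higher with DAXX siRNA alone than with non-targeting siRNA alone (limma adjusted p = 0.245), again without overlap, as was so for 2.69% of tested genes in that direction. The widest intervals were those of ANGPTL4, whose fold change was 0.35 (-0.24 to 0.94) with crotonate and 0.42 (-0.17 to 1.01) without it. For ACSL5 the change with crotonate was 0.14 (-0.01 to 0.28), and for ACSL1 it was -0.09 (-0.28 to 0.10). The 2 siRNA comparisons at each gene use the same libraries as the crotonate comparisons.

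Whether the response to crotonate differed between the siRNA arms was tested by the interaction, the crotonate fold change of the DAXX siRNA arm less that of the non-targeting arm. None of the 9 genes was called, as for all genes (0.0% called higher and 0.0% lower with limma; 433 of 17973 had an unadjusted p under 0.05). None of the 9 had an unadjusted p under 0.05. The interaction ranged from -0.40 for PDK4 to 0.12 for ACSL5. For PPARG it was -0.16 and for ACSL3 -0.18. So PDK4 and ACSL4, which passed the threshold in the non-targeting arm and missed it in the DAXX siRNA arm, were not shown to respond differently.

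PPAR receptors and their coregulators, a list of 17 genes of which 15 were tested, had 4 called higher and 0 lower with crotonate in the DAXX siRNA arm, and 2 higher and 1 lower in the non-targeting arm. These and the counts of the lists that follow stand beside the 13.0% and 13.1% of all tested genes called higher in the DAXX siRNA and non-targeting arms. The list's median fold change was 0.09 and 0.01 in these arms. PPARA, the receptor that drives fatty acid oxidation in liver, averaged 26.9 ± 1.91 RPM with DAXX siRNA and crotonate, against 18.6 ± 0.957 RPM with DAXX siRNA alone (SD, n = 4 each; log2 fold change 0.53, limma adjusted p = 0.00024). PPARA averaged 25.3 ± 1.72 RPM with non-targeting siRNA and crotonate, against 17.7 ± 1.60 RPM without it (0.52, limma adjusted p = 0.000304). PPARD had fold changes of 0.21 and 0.07 in the DAXX siRNA and non-targeting arms, neither past the threshold. The coactivator genes NCOA1 and NCOA3 had fold changes of 0.36 and 0.33 in the DAXX siRNA arm, both called. In the non-targeting arm NCOA3 was called (0.32) and NCOA1 was not (0.25, limma adjusted p = 0.0692). Under centring the NCOA1 value was 0.24 in the DAXX siRNA arm (limma adjusted p = 0.0731) and the NCOA3 values were 0.21 and 0.19 in the DAXX siRNA and non-targeting arms (limma adjusted p = 0.137 and 0.193), so these calls were lost. Quantile scaling also ended the NCOA1 call and the NCOA3 call in the non-targeting arm. Leaving out 1 library ended the NCOA3 call for DAXX siRNA library 3 or DAXX siRNA and crotonate library 1 in the DAXX siRNA arm, and for non-targeting library 1, 2 or 3 or non-targeting and crotonate library 1, 3 or 4 in the non-targeting arm. PPRC1, a coactivator related to PGC-1, was lower with crotonate in the non-targeting arm (-0.44, limma adjusted p = 0.00112; 118 ± 4.39 RPM with crotonate, against 160 ± 14.1 RPM without it), and at -0.17 in the DAXX siRNA arm it was not called. PPARGC1A had no read in any library.

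Other known PPAR targets, a list of 34 genes of which 22 were tested, had 3 called higher and 1 lower in the DAXX siRNA arm and 4 higher and 0 lower in the non-targeting arm, with median fold changes of 0.19 and 0.17. The shares called higher, 13.6% and 18.2% of 22, are near those of all tested genes. Several textbook targets were not expressed here: FABP1 had no read, and FABP4 and CD36 reached at most 0.113 and 0.177 RPM. ACAA2, a thiolase of mitochondrial beta-oxidation, was called in both arms (0.32 with DAXX siRNA and 0.35 with non-targeting siRNA), although both calls were lost under centring and under quantile scaling. EHHADH, an enzyme of peroxisomal beta-oxidation, had 0.37 in the DAXX siRNA arm (limma adjusted p = 0.0539) and 0.45 in the non-targeting arm (limma adjusted p = 0.0193). The EHHADH call was lost under centring (0.32, limma adjusted p = 0.0932), under quantile scaling (0.29, limma adjusted p = 0.139), without non-targeting library 2 (0.31) and without non-targeting and crotonate library 1 (0.41). SLC25A20, the carnitine-acylcarnitine carrier, was called in the DAXX siRNA arm (0.28, limma adjusted p = 0.0448) and had 0.12 in the non-targeting arm. The SLC25A20 call, at the threshold, held in 11 of 24 other settings, and under centring the values were 0.16 (limma adjusted p = 0.24) and -0.0056 in these arms. CREB3L3, a transcription factor of liver and gut, averaged 1.04 ± 0.519 RPM with DAXX siRNA and crotonate, against 0.307 ± 0.213 RPM with DAXX siRNA alone (1.80, limma adjusted p = 0.0118), with overlapping libraries. Without DAXX siRNA and crotonate library 2 the CREB3L3 value was 1.52 (limma adjusted p = 0.0541). CREB3L3 averaged 1.41 ± 0.351 RPM with non-targeting siRNA and crotonate, against 0.286 ± 0.129 RPM without it (2.39, limma adjusted p = 0.00132), on 5 to 88 reads per library. HILPDA, a small lipid droplet protein and inhibitor of adipose triglyceride lipase, was lower in the DAXX siRNA arm (-0.38, limma adjusted p = 0.0493), a call at the threshold that held in 11 of 24 other settings.

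Other acyl-CoA synthetases, 22 genes of which 14 were tested, had 2 called higher (14.3%, near the share of all tested genes) and 0 lower in each arm, with list medians of 0.11 and 0.10 in the DAXX siRNA and non-targeting arms. The 2 were ACSL6 and SLC27A6 in both arms. ACSL6, a long-chain synthetase best known from brain, had 2.13, 1.04, 1.85 and 0.619 RPM with DAXX siRNA and crotonate, against 0.330, 0.607, 0.255 and 0.312 RPM with DAXX siRNA alone. ACSL6 had 1.64, 1.75, 1.81 and 1.69 RPM with non-targeting siRNA and crotonate, against 0.438, 0.721, 0.428 and 0.538 RPM without it. The groups were apart in both arms, and the log2 fold changes were 1.83 and 1.73 (limma adjusted p = 0.000969 and 0.00158), on 9 to 98 reads per library. SLC27A6, a fatty acid transport protein with acyl-CoA synthetase activity, averaged 16.9 ± 0.783 RPM with DAXX siRNA and crotonate, against 11.6 ± 0.754 RPM with DAXX siRNA alone (0.54, limma adjusted p = 8.08e-05). SLC27A6 averaged 19.4 ± 0.624 RPM with non-targeting siRNA and crotonate, against 11.5 ± 0.454 RPM without it (0.75, limma adjusted p = 2.06e-06). ACSS2, the cytosolic and nuclear synthetase that can make acetyl-CoA and crotonyl-CoA from the free acids, had fold changes of 0.09 and 0.10 in the DAXX siRNA and non-targeting arms and was not called.

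Lipid droplet proteins and lipases, 16 genes of which 13 were tested, had 4 called higher in each arm, MGLL, DGAT2, PLIN3 and FITM2, and HILPDA lower in the DAXX siRNA arm. Their median fold change was 0.24 in the DAXX siRNA arm and 0.05 in the non-targeting arm. MGLL, the monoglyceride lipase, averaged 16.8 ± 2.21 RPM with DAXX siRNA and crotonate, against 9.50 ± 0.624 RPM with DAXX siRNA alone (0.82, limma adjusted p = 7.42e-05). MGLL averaged 14.8 ± 1.73 RPM with non-targeting siRNA and crotonate, against 9.08 ± 1.19 RPM without it (0.71, limma adjusted p = 0.000304). DGAT2, which makes triglyceride, had 0.65 and 0.52 in the DAXX siRNA and non-targeting arms. The DGAT2 call in the non-targeting arm was lost under centring (0.40), under quantile scaling (0.32) and without non-targeting and crotonate library 3 or 4 (0.48 and 0.46). PLIN3, a droplet coat protein related to PLIN2, had 0.34 and 0.25 in the same arms. The PLIN3 call in the non-targeting arm was lost under centring (0.13, limma adjusted p = 0.26), without non-targeting library 4 (0.21) and without non-targeting and crotonate library 2 (0.24). The FITM2 call in the non-targeting arm lay at the threshold (limma adjusted p = 0.049992). PLIN3 was also higher with DAXX siRNA and crotonate than with non-targeting siRNA and crotonate (378 ± 31.9 RPM, against 304 ± 7.24 RPM; 0.31, limma adjusted p = 0.0362), a call that held in 12 of 24 other settings. It was the only gene of these lists called in a DAXX siRNA comparison.

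Paralogs of the 9 genes, 14 of which 12 were tested, had 5 called higher in the DAXX siRNA arm and 4 in the non-targeting arm, with medians of 0.38 and 0.23 and none lower. ACSL6, PLIN3 and PPARA are among them and were given above, and the other in the DAXX siRNA arm was ANGPTL8, a relative of ANGPTL4 (0.84). PDK3, a kinase of the same enzyme as PDK4, averaged 27.6 ± 1.78 RPM with DAXX siRNA and crotonate, against 16.1 ± 1.47 RPM with DAXX siRNA alone (0.78, limma adjusted p = 1.02e-05). In the non-targeting arm PDK3 averaged 31.0 ± 1.54 RPM with crotonate, against 17.8 ± 2.14 RPM without it (0.81, limma adjusted p = 6.6e-06). PDK1 and PDK2 were not called in either arm. Neither were CPT1B and CPT1C, with CPT1C at 0.45 and 0.58 in the DAXX siRNA and non-targeting arms.

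**Figure D3:**
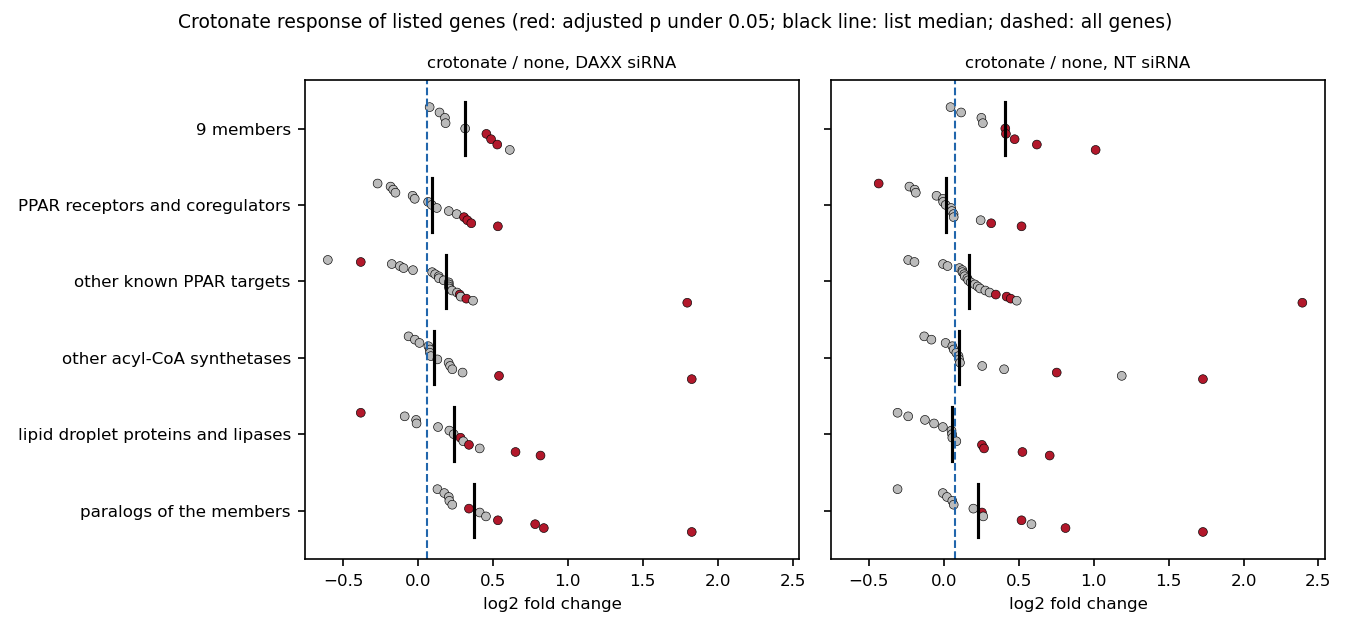
Log2 fold change with crotonate for each tested gene of 6 sets of genes, in the DAXX siRNA arm (left) and the non-targeting arm (right). Red points have limma adjusted p under 0.05, the black line is the median of the set and the dashed line is the median of all tested genes (0.06 and 0.07). The 9 genes have a median of 0.32 and 0.41, and the points far to the right are ACSL6 and CREB3L3.

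The genes nearest in pattern to each called gene were found among 8330 genes of at least median level as the smallest root mean square difference of centred log2 values over 16 libraries. For PPARG they were GM2A, WDR47 and MAOB, at 0.09 each, where PPARG itself varied by 0.29 about its mean. For ACSL1 they were PTPN13, PDE8A and TMTC2 (0.07, 0.07 and 0.09, against 0.26 for ACSL1 about its mean). For ACSL4 they were LAMP2, ABCD3 and FNBP1L (0.05 each, against 0.24), and for ACSL5 they included GALNT10 and ARRB1 (0.08 and 0.09, against 0.25). The nearest to PDK4 were ZCCHC24, RASSF2 and MYORG at 0.28, 0.29 and 0.29, against 0.50 for PDK4 itself, so none of the genes searched followed it closely. PDK4 lies below the median level, on 54 to 197 reads per library, so genes at its level were not searched. These likenesses share the libraries and their scaling, and are a description.

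Kcr regions at the 9 genes were described next. The 20 regions with a member's symbol divide as 6 for PPARG, 4 for ACSL1, 3 each for ACSL3 and CPT1A, and 1 each for ACSL4, ACSL5, ANGPTL4 and PLIN2. By coordinates, chr7:95595901-95597700 covers the PDK4 start, although the table names AC002451.1 there. Of the 19 RefSeq start windows of the 9 genes, 12 overlapped a Kcr region (63.2%), where 43.2% of all 35116 windows did. All windows belong to 27305 genes, where 17973 genes passed the RNA filter, so the 2 shares are not matched for expression. Among the 12, 3 PPARG windows share 1 region and 2 ACSL5 windows share another. CPT1A was the gene with no window in a region: its nearest region, chr11:68836951-68843250, lay 978 bases from the window. Regions of the 8 genes were 600 to 38550 bases wide, with a median of 1650 bases, where all regions had a median of 1800 bases. The mean anti-Kcr level over input, as a log2 difference, was 0.54 to 1.79 with a median of 1.06, where all regions had a median of 0.90.

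**Figure D4:**
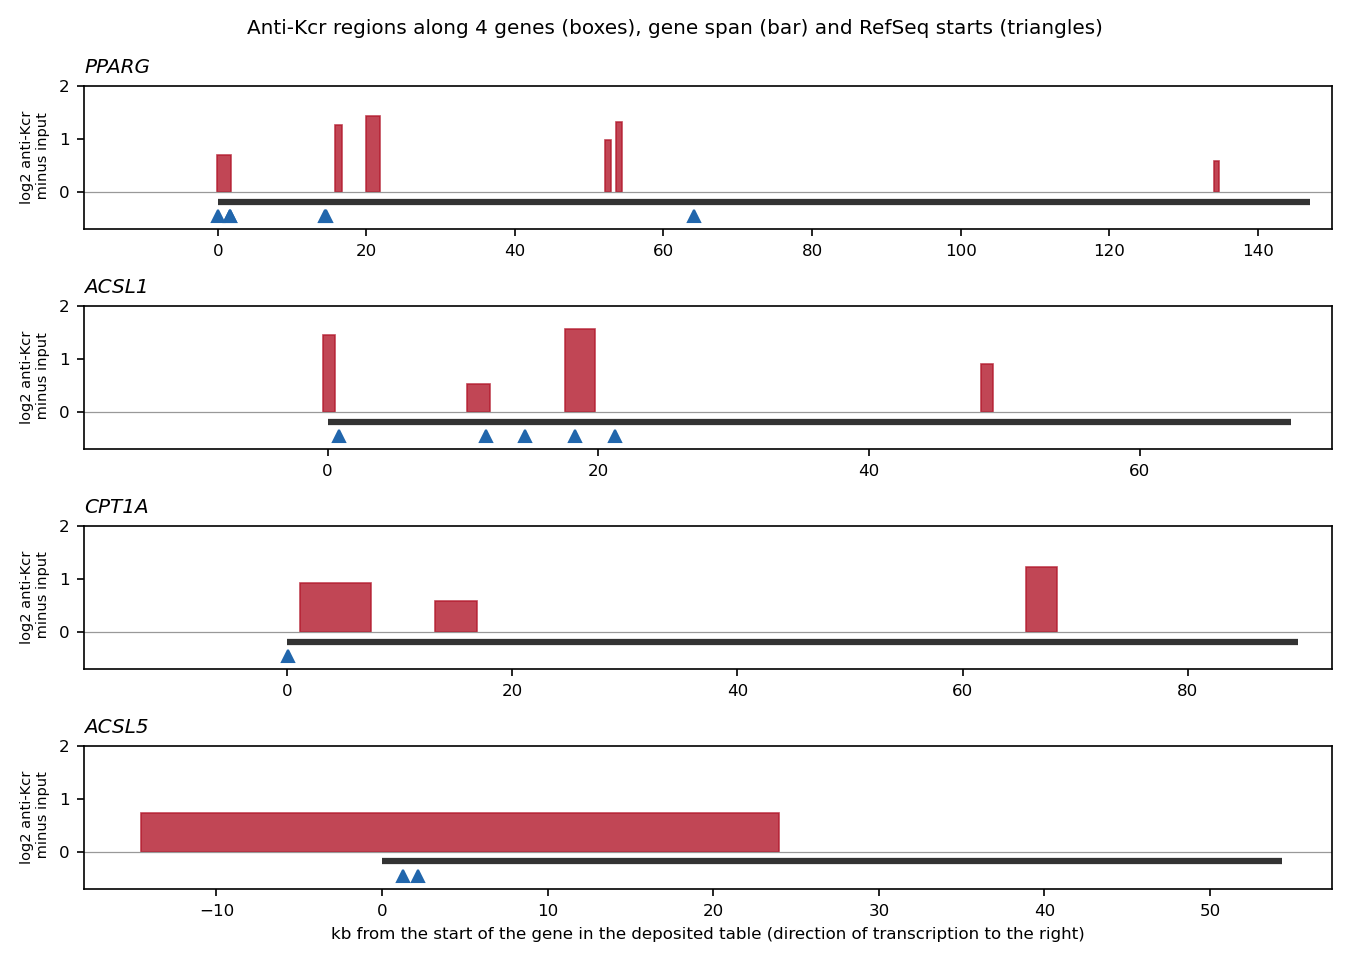
Kcr regions along PPARG, ACSL1, CPT1A and ACSL5, drawn to scale by distance from the gene's start in the deposited table (kb, transcription to the right; scales differ between panels). Box width is the region, box height the log2 anti-Kcr level minus the log2 input level, the bar is the gene and triangles are RefSeq starts. The first part of ACSL5 lies under 1 box of 38550 bases, while PPARG has 6 narrow boxes and ACSL1 has 4.

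PPARG had 1 region at its first starts, chr3:12287251-12289200, which overlapped 3 of its start windows, including both windows printed above. The region begins inside the first printed window, between the 2 half-sites of that window and its start. Those 2 half-sites therefore lie outside the region. The start at position 12351417, with a window at chr3:12351167-12351466, had no region nearer than 9317 bases. ACSL1 had a region at chr4:184826251-184827150 that began 33 bases upstream of the window of its first start, and regions over 2 starts further into the gene, chr4:184814851-184816500 and chr4:184807051-184809300. The starts and the first part of ACSL5 lay in 1 region of 38550 bases, chr10:112359451-112398000, wider than 99.8% of all regions, which ended inside the gene. The start and the first part of ANGPTL4 lay in a region of 11700 bases, chr19:8358001-8369700, wider than 96.5% of all regions. The regions of ACSL4, ACSL3 and PLIN2 at their starts were chrX:109732501-109733250, chr2:222860701-222863700 and chr9:19126501-19128150.

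No Kcr region of these genes was called in any comparison, nor was any of the 49916 regions (0.0% called with limma in each of the 4 comparisons and the interaction, with 1A and 1B averaged as 1 sample). At an unadjusted p under 0.05 there were 2 of 20 (10%) with crotonate in the DAXX siRNA arm, where 8.50% of all regions were (4241 of 49916). In the non-targeting arm there were 3 of 20 (15%), where 13.3% were (6616). Both shares are near those of all regions. For DAXX siRNA with crotonate there were 2 of 20 (10%), where 4.17% of all regions were (2082 of 49916). Without crotonate there was 1 of 20 (5%), where 2.38% were (1186). Anti-Kcr levels in regions were lower on balance with crotonate over all regions, with a median log2 fold change of -0.16 in the DAXX siRNA arm and -0.19 in the non-targeting arm, which shifted by 0.14 and 0.17 under centring. The median of the 20 regions was -0.12 and -0.26 in these arms. With 1A and 1B kept apart, 3 and 97 of all regions were called lower in the DAXX siRNA and non-targeting arms, none of them among the 20. The deposited values carry 1 scaling factor per library, so a change of Kcr over the whole genome cannot be read from them.

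Levels at the start regions are given as scaled reads, the authors' reads multiplied by 1 factor per library, for 2 samples with crotonate and 3 without. The PPARG start region had 43.8 and 43.0 scaled reads with DAXX siRNA and crotonate, against 49.9, 36.5 and 47.4 with DAXX siRNA alone. With non-targeting siRNA it had 44.4 and 22.7 with crotonate, against 48.5, 35.4 and 49.2 without it, and the input had 25.4. The sample at 22.7 lay below the input. The log2 fold changes were -0.03 (95% interval -0.56 to 0.51) and -0.47 (-1.0 to 0.06) in the DAXX siRNA and non-targeting arms, while PPARG RNA rose in both.

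The ACSL5 region had 1093 and 970 scaled reads with DAXX siRNA and crotonate, against 1068, 1105 and 943 with DAXX siRNA alone. With non-targeting siRNA it had 1084 and 866 with crotonate, against 1077, 973 and 948 without it. All groups overlapped, and with the deepest counts of the 20 regions the interval in the non-targeting arm was the narrowest given here, -0.32 to 0.24 around -0.04. The ACSL1 region by its first start had 14.8 and 10.2 scaled reads with non-targeting siRNA and crotonate, against 20.0, 17.7 and 15.9 without crotonate (-0.53, -1.19 to 0.13). The regions over the further starts of ACSL1 had fold changes of 0.02 (-0.54 to 0.59) at chr4:184814851-184816500 and 0.13 (-0.35 to 0.62) at chr4:184807051-184809300 in the non-targeting arm. The ACSL4 start region had -0.45 (-1.24 to 0.33) in that arm, and the region over the PDK4 start had -0.31 (-0.82 to 0.20). In the DAXX siRNA arm the region by the first ACSL1 start had -0.12 (-0.78 to 0.54). In the same arm the ACSL4 start region had -0.10 (-0.88 to 0.69) and the PDK4 one 0.07 (-0.44 to 0.58). The further ACSL1 starts had -0.19 and -0.17 there, in the order above. The median over all regions was -0.16 in the DAXX siRNA arm and -0.19 in the non-targeting arm. No Kcr change was called at these regions, nor at any of all 49916 regions. Whether Kcr and RNA changed together at these genes therefore cannot be told.

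**Figure D5:**
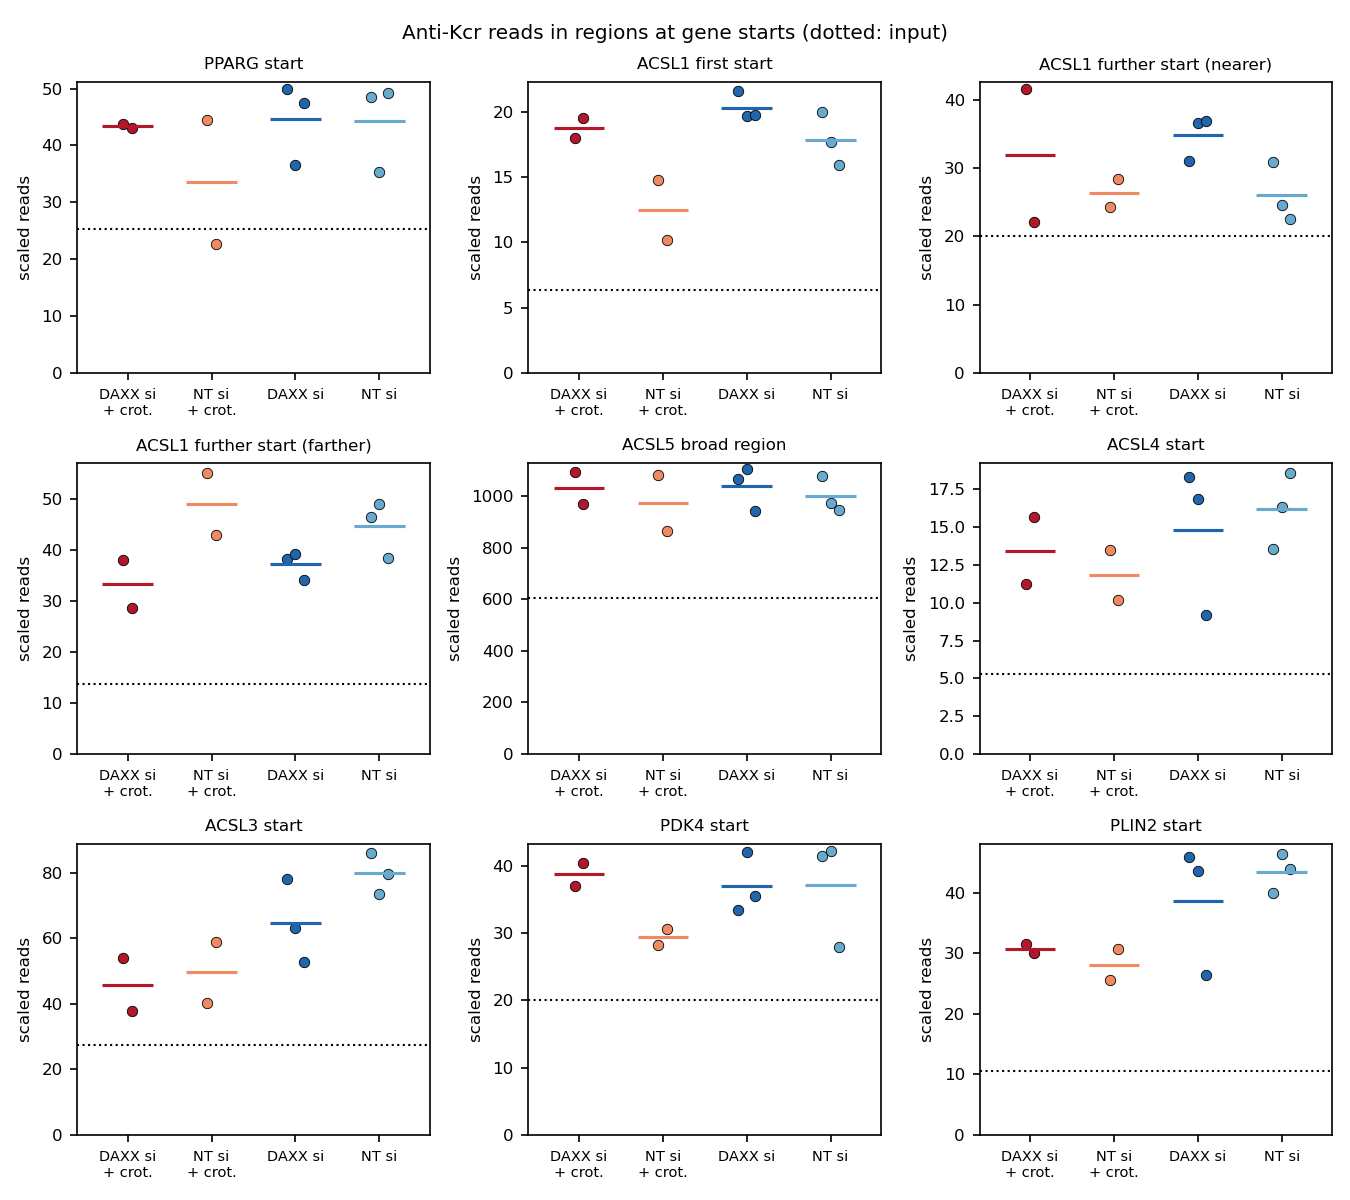
Anti-Kcr level (scaled reads, linear axes from 0) in 9 regions at gene starts, with 4 groups per panel. Points are samples (2 with crotonate, 3 without, 1A and 1B averaged), short lines are group means and the dotted line is the input library. For ACSL3, PLIN2, the first start of ACSL1 and, narrowly, ACSL4, the points with non-targeting siRNA and crotonate lie below all those with non-targeting siRNA alone. The share of all regions apart in this way was not counted, and 74.4% of all regions had a fold change below 0 in that arm. The ACSL5 groups overlap.

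Unadjusted p-values under 0.05 fell on the start regions of ACSL3 and PLIN2, whose RNA was not called, and on regions further inside PPARG and ACSL1. For crotonate such regions were 10% and 15% of the 20 in the DAXX siRNA and non-targeting arms, near the 8.50% and 13.3% of all regions. The ACSL3 start region had 53.9 and 37.8 scaled reads with DAXX siRNA and crotonate, against 78.2, 63.2 and 52.7 with DAXX siRNA alone. With non-targeting siRNA it had 40.4 and 59.0 with crotonate, against 86.0, 73.6 and 79.7 without it. The log2 fold changes were -0.50 and -0.71, with limma adjusted p = 0.557 and 0.246. The PLIN2 start region had 25.6 and 30.6 scaled reads with non-targeting siRNA and crotonate, against 39.9, 46.3 and 43.9 with non-targeting siRNA alone (-0.63, limma adjusted p = 0.308). Both regions were thus lower in every sample with crotonate in the non-targeting arm, short of the threshold over all regions. How many of all regions were apart in this way was not counted. In that arm 15 of the 20 regions (75%) had a fold change below 0, where 74.4% of all regions did.

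At chr3:12340951-12341850 inside PPARG, the 2 samples with non-targeting siRNA and crotonate had 12.1 and 3.40 scaled reads, against 18.6, 19.1 and 21.3 with non-targeting siRNA alone. The log2 fold change was -1.61 (limma adjusted p = 0.224), and it was -0.70 without the sample at 3.40 and -2.53 without the other (limma adjusted p = 0.898 and 0.0437). At chr3:12421501-12422100, also inside PPARG, DAXX siRNA with crotonate had 5.62 and 7.82 scaled reads, against 10.6, 15.4 and 14.5 with DAXX siRNA alone and 13.5 and 12.5 with non-targeting siRNA and crotonate. Its fold changes were -1.01 for crotonate and -0.97 for DAXX siRNA, which share the 2 low samples. At chr4:184777651-184778550, inside ACSL1, DAXX siRNA alone had 11.5, 9.83 and 9.22 scaled reads, against 21.2, 23.2 and 21.3 with non-targeting siRNA alone (-1.11, limma adjusted p = 0.9999). At chr4:184807051-184809300 DAXX siRNA with crotonate had 38.2 and 28.7 scaled reads, against 55.2 and 43.1 with non-targeting siRNA and crotonate (-0.56, limma adjusted p = 0.999). Counts of this size, 3 to 41 reads per library in these 4 regions, limit what could be detected.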

How the data were processed

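RNA was measured in 16 libraries and anti-Kcr chromatin in 12, with 1 input. Per the submitters' processing notes, which give no roles, the tools were Trim Galore 0.6.2, cutadapt 2.3 and HISAT2 2.2.1 for RNA, and Trim Galore 0.6.5, cutadapt 2.3, Bowtie2 and MACS for ChIP, with the build GRCh38; the sources used here give neither counting strand nor gene annotation. Both tables that the authors deposited hold log2 values: log2 RPM per gene with no division by length, where 0 reads stand as 0.9 read, and log2 reads per region times 1 factor per library, with input unsubtracted. Undoing the factors gave whole reads for 100% of values (tolerance 0.01 read, wider at high counts).

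limma 3.58.1 in R 4.3.3 (trended prior, 1 coefficient per group, all groups in the fit, Benjamini-Hochberg adjustment over every gene or region tested) gave fold changes, SE and p-values; a call is an adjusted p under 0.05. Genes needed 0.25 RPM in 4 libraries (17973 of 38148; 10458 had no read), and all 49916 regions were tested. ChIP samples 1A and 1B differed by no more than read sampling with non-targeting siRNA (chi-squared divided by its degrees of freedom was 1.007) and by slightly more with DAXX siRNA (1.012, p = 0.0251 by that test), where other pairs gave 1.035 to 1.383; they were averaged as 1 sample, so ChIP n is 3 without crotonate and 2 with it. limma was also run on simulated data with as many features raised as lowered, by more than the rises of PPARG, ACSL1 and ACSL5. That run therefore does not test the calls given here.

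Alternatives were other scalings, filters and pseudocounts, limma-voom on recovered reads, a replicate block and leaving out each sample. Genes named are the 9 members, DAXX, up to 3 called in each direction per list and crotonate comparison by adjusted p, and the 3 nearest patterns per called member (1 gene near ACSL5 is not reported here); FITM2, ANGPTL8, PPARD, PPARGC1A, FABP1, FABP4, CD36, ACSS2, PDK1, PDK2, CPT1B, CPT1C, ZDHHC6 and AL157786.1 were named after their values were seen. Members and lists were chosen with earlier results of these data known. Start windows and sequences come from RefSeq (GRCh38.p14), matched by symbol for all 9 genes. Figures were drawn with Python 3.11.15 and matplotlib 3.10.9.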

Additional observations from a re-analysis of the deposited data

Results flagged for a closer look

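In groups of 4 libraries, a library was marked when its gap to the next one, divided by the range of the group, was above the critical value of Dixon's test at the 95% level. Of 100 groups tested, 6 were marked, and chance marks about 1 in 20. Among the 9 genes 2 of 36 groups were marked. PDK4 in library 4 of non-targeting siRNA with crotonate gave 0.868: it had 1.96 RPM and the other 3 had 3.36 to 3.65 RPM. Without it the crotonate fold change of PDK4 in the non-targeting arm was 1.23, against 1.01 with it. ACSL5 in library 4 of DAXX siRNA alone gave 0.843, at 33.2 RPM beside 34.7 to 35.1 RPM.

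DAXX in library 4 of non-targeting siRNA with crotonate gave 0.888, at 95.2 RPM beside 102 RPM. ACAA2 in library 3 of the same group gave 0.843, at 22.2 RPM beside 24.4 to 24.8 RPM. NCOA1 was marked in library 3 of DAXX siRNA alone (0.832, at 18.1 RPM) and in library 4 of non-targeting siRNA alone (0.838, at 22.3 RPM).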

How the results depend on the processing

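Each RNA comparison was recomputed under 24 other settings, the RNA interaction under 23, and each ChIP comparison under 15. The crotonate calls of PPARG, ACSL1 and ACSL5 in both arms, and of PDK4 in the non-targeting arm, held in all 24. Members called higher with crotonate numbered 3 to 4 in the DAXX siRNA arm and 4 to 6 in the non-targeting arm over those settings, and 0 members were called for DAXX siRNA or the interaction in any. Under centring, the fold change turned to -0.038 for ACSL3 in the DAXX siRNA arm, and in the non-targeting arm to -0.014 for CPT1A, -0.085 for PLIN2 and -0.0056 for SLC25A20; under quantile scaling PLIN2 turned to -0.056 and SLC25A20 to -0.022. Without 1 library in turn, ANGPTL4 in the non-targeting arm ranged from -0.012 (without non-targeting library 1) to 0.51. Among list genes, calls were kept in 16 (NCOA3), 20 (DGAT2, EHHADH) and 21 (PLIN3) of 24 settings in the non-targeting arm, and in 11 (SLC25A20), 21 (NCOA3), 22 (NCOA1) and 23 (CREB3L3) in the DAXX siRNA arm. The cause was not tested.

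For Kcr, the region count of members called lower in the non-targeting arm ranged from 0 to 1 without each sample in turn; the 1 was chr3:12340951-12341850 (-2.53, without the other crotonate sample, so the lone sample is assumed to vary like the other groups). The PPARG start region in the DAXX siRNA arm turned to 0.11 under centring, 0.14 under quantile scaling and 0.053 with the replicate block, with -0.16 to 0.061 without each sample. In the non-targeting arm, leaving out each sample gave -0.95 to 0.018 for that region, -0.046 to 0.31 for chr4:184807051-184809300, -0.088 to 0.16 for chr4:184814851-184816500 (-0.040 with 1A and 1B apart) and -0.20 to 0.12 for ACSL5 (0.13 centred, 0.19 quantile-scaled). Over all regions in the non-targeting arm, 97 were called lower with 1A and 1B apart and 410 with the replicate block, and in the DAXX siRNA arm 395 without DAXX siRNA and crotonate sample 2.

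Deviations of same-numbered RNA libraries correlated at 0.029 to 0.188 for crotonate in the DAXX siRNA arm, 0.017 to 0.167 for crotonate in the non-targeting arm, -0.020 to 0.037 for DAXX siRNA with crotonate and -0.149 to 0.091 without it. For ChIP they correlated at 0.0038 to 0.095. These are weakly positive for crotonate, but not every pair was over 0.1 and in no RNA comparison did every library correlate best with its own number, so the numbers were not taken to pair samples. With the replicate block 4 members were called with crotonate in the DAXX siRNA arm (ACSL4 added, limma adjusted p = 0.0285) and 6 in the non-targeting arm (ACSL3 added, limma adjusted p = 0.0346). Read depth limits the narrow Kcr regions, and the spread between libraries limits ANGPTL4.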
